A study of Mus musculus with 8 samples.

Results

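The genes described here encode the liver enzymes that build long-chain polyunsaturated fatty acids. They are the desaturases Fads1 and Fads2, the elongases Elovl2 and Elovl5, and Cyb5r3, the cytochrome b5 reductase that passes electrons towards desaturases. The 5 genes were chosen by symbol from 16593 genes with a single symbol on the array. All 5 were on the array and all 5 were bright enough to be among the 8945 genes tested. Fads1, Fads2, Elovl2 and Elovl5 were read by 1 probe each and Cyb5r3 by 3 probes, of which the one with the highest mean is used unless stated.

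Liver total RNA of female C57/BL6 mice was taken after a fast of 6 h and hybridised to 8 Illumina bead arrays. The diet held 21% or 5% corn oil by weight, the mice were 456 or 90 days old (D456 or D90), and they belonged to generation F3 or F1. No combination had a replicate, so every level of a factor had 4 arrays. The labels gave neither the number of animals behind an array nor which generation ate the diets and for how long. Without replicates, a p-value here measures a difference against the departures of the arrays from the additive fit. Those departures hold interactions between the factors as well as array-to-array spread, which may be technical.

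Mammals cannot make linoleic acid, the main polyunsaturated fatty acid of corn oil, and take it from food. In liver, Fads2 (delta-6 desaturase) opens the pathway by adding a double bond to it, Elovl5 lengthens the product and Fads1 (delta-5 desaturase) then gives arachidonic acid, the parent of many signalling lipids. The same enzymes act on the omega-3 series, and Elovl2 carries out the later elongations on the way to docosahexaenoic acid. In rodent liver the transcription of this pathway is known to fall when polyunsaturated fat is plentiful in the diet, through the factor SREBP-1c.

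All arrays carried hepatocyte transcripts, with a median log2 intensity of 11 hepatocyte markers between 11.19 and 12.11. The marker at this median was G6pc on every array. Several arrays also stood apart. The summed intensity of 22 pancreas acinar markers was 3363 to 3789 in the arrays of the 21% diet. In the 5% arrays it was 28462 in F3 D456, 18445 in F1 D456 and 10679 in F3 D90, against 3102 in F1 D90. The F1 5% D90 array had the highest skeletal muscle marker sum (4408), followed by F3 5% D456 (3311), against 1467 to 1710 in the other 6 arrays. The F1 5% D90 array also had the lowest mean correlation with the other arrays (0.982, against 0.989 to 0.993). The F1 21% D90 array had an intensity of 166 for Eif2s3y, a gene of the Y chromosome, against 109 to 113 elsewhere. Values without the 3 arrays with pancreas transcripts rest on 5 arrays, of which 1 (F1 5% D90) had the 5% diet. Beyond the values given without single arrays, without those 3 or with the pancreas marker level as a covariate, the part of these transcripts in the differences was not tested.

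Fads2, the entry enzyme, was the only member whose diets did not overlap. Its intensity in the 21% arrays was 1090 in F3 D456, 1146 in F1 D456, 1053 in F3 D90 and 991 in F1 D90. In the 5% arrays it was 1172 in F3 D456, 1515 in F1 D456, 1358 in F3 D90 and 1193 in F1 D90. Every 21% array lay below every 5% array, by a narrow margin (1146 against 1172). Of all genes tested, 0.894% showed this pattern in that direction. The mean log2 intensity was 10.06 ± 0.09 with 21% corn oil and 10.35 ± 0.17 with 5% (SD, n = 4 each). The difference was -0.29 ± 0.11 on the log2 scale (SE), or -18.0% in intensity, with a 95% interval of -0.54 to -0.04. It had an unadjusted p = 0.0299 and did not pass after adjustment over all genes (limma, adjusted p = 0.999963). Leaving out 1 array moved the difference between -0.38 (without F3 5% D456) and -0.21 (without F1 5% D456). The unadjusted limma p then reached 0.123 (without F3 5% D90). Without the 3 arrays with pancreas transcripts the difference was -0.23. In bulk RNA of this kind, less transcript per cell and fewer cells carrying it cannot be told apart.

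Fads1, which lies on the same chromosome (19) as Fads2, had no such separation. Its intensity was 14656 in F3 D456, 15264 in F1 D456, 15220 in F3 D90 and 12601 in F1 D90 with 21% corn oil. With 5% it was 14061 in F3 D456, 15818 in F1 D456, 15034 in F3 D90 and 16414 in F1 D90. The diets overlapped, and both the lowest and the highest value of the 8 arrays came from the F1 D90 pair. The diet difference was -0.09 ± 0.09 (log2, 95% interval -0.29 to 0.12, -5.97% in intensity, limma adjusted p = 0.999963), and 2 of 4 pairs of arrays with the same age and generation had the lower value with 21%. Without the F1 21% D90 array the difference was 0.0077, without F1 5% D90 it was -0.039, and without the 3 arrays with pancreas transcripts it was -0.30. Fads1 also varied least of the members over the 8 arrays, with an SD of 0.12 on the log2 scale.

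Elovl5, the elongase of the steps between both desaturases, had an intensity of 14486 in F3 D456, 14875 in F1 D456, 14356 in F3 D90 and 12477 in F1 D90 with 21% corn oil. With 5% it had 14175 in F3 D456, 15048 in F1 D456, 16308 in F3 D90 and 18854 in F1 D90. The 2 young 5% arrays were the highest of all 8, and the other 6 lay between 12477 and 15048. The diet difference was -0.19 ± 0.10 (log2, 95% interval -0.43 to 0.05, -12.4% in intensity, limma adjusted p = 0.999963), with 3 of 4 pairs lower. It was -0.08 without F1 21% D90 and -0.10 without F1 5% D90, and -0.54 without the 3 arrays that held pancreas transcripts.

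Elovl2, the elongase of the later steps, varied most of the members (SD 0.47 on the log2 scale, above that of 98.2% of the genes tested). With 21% corn oil its intensity was 641 in F3 D456, 1164 in F1 D456, 1069 in F3 D90 and 954 in F1 D90. With 5% it was 819 in F3 D456, 949 in F1 D456, 1488 in F3 D90 and 1796 in F1 D90. The highest and the lowest array differed 2.80-fold. The diet difference was -0.36 ± 0.19 (log2, 95% interval -0.80 to 0.07, -22.2% in intensity, limma adjusted p = 0.999963). The diets overlapped, and the F1 D456 pair went the other way (+0.29). Without F1 21% D90 the difference was -0.16, without F1 21% D456 it was -0.59, and without the 3 arrays with pancreas transcripts it was -0.66.

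Cyb5r3, the reductase, had the largest diet difference of the members. Its intensity was 3649 in F3 D456, 4537 in F1 D456, 3928 in F3 D90 and 4320 in F1 D90 with 21% corn oil. With 5% it was 4324 in F3 D456, 5399 in F1 D456, 5105 in F3 D90 and 7579 in F1 D90. The 21% array was lower in 4 of 4 pairs, although the diets overlapped at their edges. The difference was -0.42 ± 0.11 (log2, 95% interval -0.67 to -0.18, -25.3% in intensity, unadjusted p = 0.00395, limma adjusted p = 0.631), which placed Cyb5r3 at rank 56 of 8945 genes by p. Without F1 5% D90, the array with the highest value, it was -0.32, and without the 3 arrays with pancreas transcripts it was -0.77.

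The 3 probes of Cyb5r3 differed. The second probe, at 298 to 661, had a diet difference of -0.43 (limma adjusted p = 0.564), close to the first. The third probe had intensities of 493 in F3 D456, 225 in F1 D456, 306 in F3 D90 and 317 in F1 D90 with 21% corn oil, and 432 in F3 D456, 538 in F1 D456, 372 in F3 D90 and 168 in F1 D90 with 5%. It was lowest in F1 5% D90, the array in which the other probes were highest, and its diet difference was -0.11 (limma adjusted p = 0.999963). Which transcripts of Cyb5r3 each probe reads was not examined here.

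**Figure D1:**
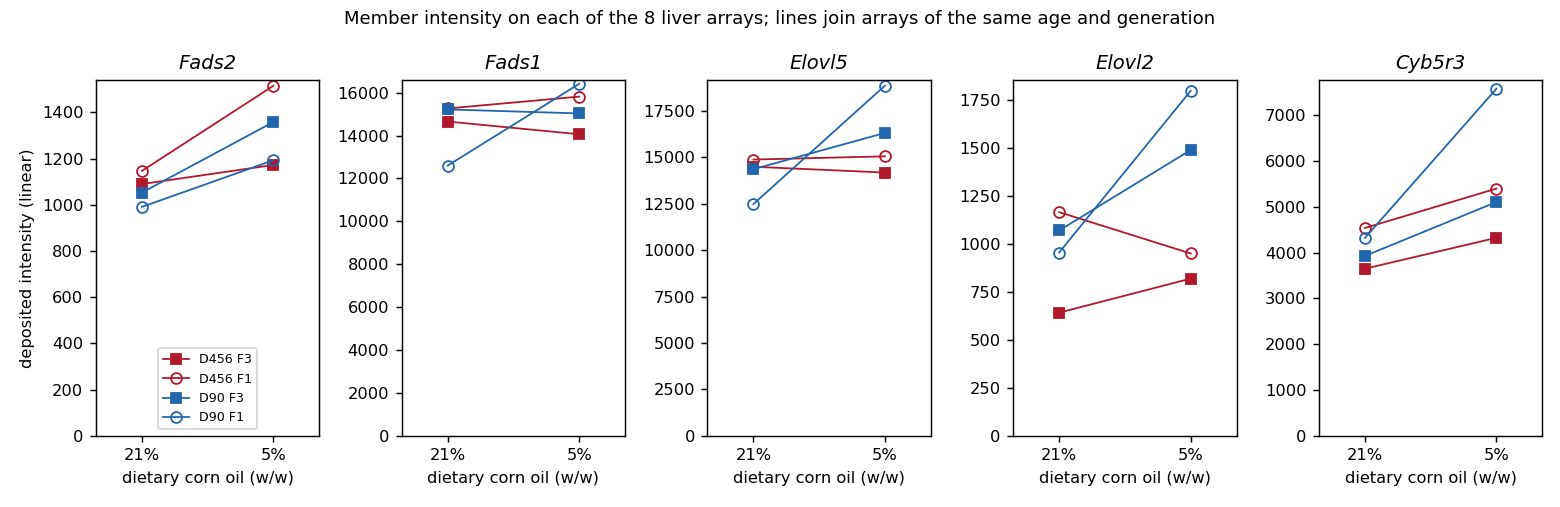
Intensity (linear, as deposited) of each member on the 8 arrays, with 21% corn oil left of 5% and lines joining arrays of the same age and generation. Fads2 and Cyb5r3 were lower with 21% in 4 of 4 pairs, and the F1 D90 pair had the steepest line for Fads1, Elovl5, Elovl2 and Cyb5r3.

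For diet, 5 of 5 members had a lower mean with 21% corn oil, against 47.0% of all genes tested. The median difference of the members was -0.29, and that of all genes tested was 0.0042. Of the hepatocyte markers 9 of 10 tested had a lower mean with 21% (median -0.06), as had 10 of 10 skeletal muscle markers (median -0.61) and 21 of 21 pancreas markers (median -1.79). Other lists went the other way, with a higher mean in 10 of 10 Kupffer cell and macrophage markers (median 0.13) and 6 of 7 endothelial markers (median 0.12). The part of all these markers in the members' values was not tested. For 2 of 5, Fads2 and Cyb5r3, all 4 pairs were lower, against 4.72% of all genes, and the same 2 had an unadjusted p below 0.05, against 3.22% of all genes in either direction. None of the 5 passed by limma, as none of the 8945 genes did (0%, with 288 genes at an unadjusted p below 0.05). The members were picked with earlier results of these arrays known, so their counts are a description.

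**Figure D2:**
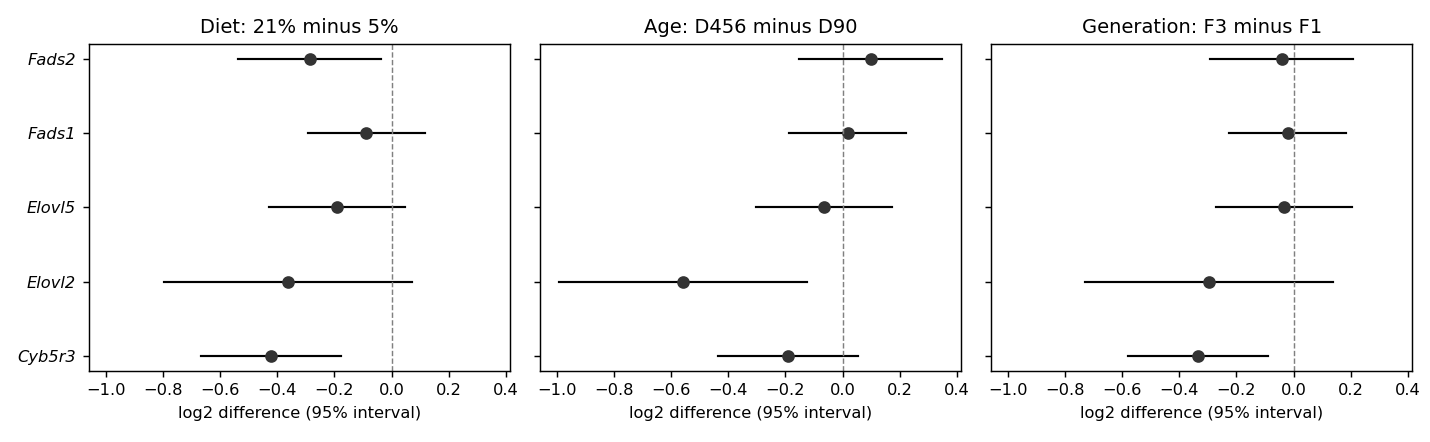
Log2 differences of the members (points) with 95% intervals from limma (lines) for diet, age and generation, n = 4 arrays per level. The diet intervals of Fads2 and Cyb5r3, the age interval of Elovl2 and the generation interval of Cyb5r3 lie below 0, and none of these passed after adjustment over all genes.

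The mean diet difference was further from 0 in the young arrays for all 5 members, and by least for Fads2. For Elovl5 the mean diet difference was 0.0074 at D456 and -0.39 at D90. For Elovl2 it was -0.03 at D456 and -0.69 at D90, and for Fads1 0.0042 at D456 and -0.18 at D90. Cyb5r3 had -0.25 at D456 and -0.59 at D90. Fads2 had -0.25 at D456 and -0.32 at D90. The test of the diet by age difference gave 0.40 ± 0.16 for Elovl5 (log2, SE, unadjusted p = 0.0330, limma adjusted p = 0.412) and 0.67 ± 0.30 for Elovl2 (adjusted p = 0.427). It gave 0.35 ± 0.18 for Cyb5r3 (limma adjusted p = 0.458), 0.19 ± 0.17 for Fads1 and 0.06 ± 0.23 for Fads2. Of all genes 0% passed this test and 11.8% had an unadjusted p below 0.05, and 1 of 5 members, Elovl5, was below 0.05. At D90 the F1 pair had the larger gap for each of these members but Fads2. The F1 D90 pair was -0.38 for Fads1, -0.60 for Elovl5, -0.91 for Elovl2 and -0.81 for Cyb5r3, and neither array of this pair carried raised pancreas markers. Both of its arrays stood apart otherwise, F1 21% D90 by Eif2s3y and F1 5% D90 by its muscle marker sum and its mean correlation with the other arrays. The F3 D90 pair was 0.02 for Fads1, -0.18 for Elovl5, -0.48 for Elovl2 and -0.38 for Cyb5r3.

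**Figure D3:**
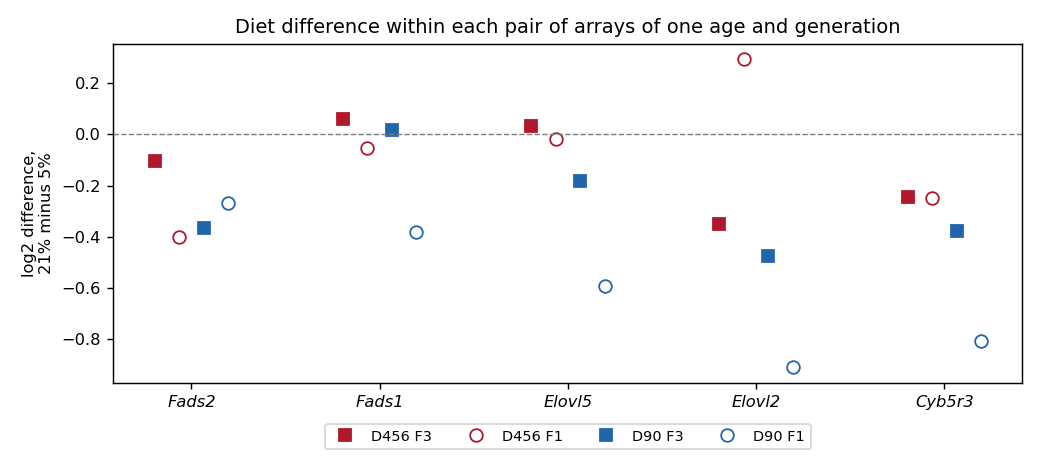
Log2 difference of 21% minus 5% corn oil within each pair of arrays of one age and generation, for each member. The F1 D90 pair (open blue circles) is the lowest for Fads1, Elovl5, Elovl2 and Cyb5r3, while for Fads2 the lowest is the F1 D456 pair at -0.40.

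Age was compared as D456 against D90. Elovl2 had the largest difference of the members, -0.56 ± 0.19 on the log2 scale (95% interval -0.99 to -0.12, -32.1% in intensity, unadjusted p = 0.0177, limma adjusted p = 0.327). Its mean log2 intensity was 9.77 ± 0.36 at D456 and 10.33 ± 0.42 at D90 (SD, n = 4 each). The difference was -0.23 without the 3 arrays with pancreas transcripts and -0.34 with the pancreas marker level as a covariate (limma adjusted p = 0.999885 and 0.826). The older array was lower in both 5% pairs (-0.92 in F1 and -0.86 in F3) and in the F3 21% pair (-0.74), while in the F1 21% pair it was higher (+0.29). Elovl2 is also known from human studies as a gene whose promoter gains DNA methylation with age, which was not measured here. Cyb5r3 had an age difference of -0.19 ± 0.11, Elovl5 of -0.07 ± 0.10, Fads1 of 0.02 ± 0.09 and Fads2 of 0.10 ± 0.11 (limma adjusted p = 0.465 to 0.939). Without the 3 arrays the age difference was -0.018 for Cyb5r3, 0.13 for Elovl5, 0.11 for Fads1 and 0.13 for Fads2, and without F1 5% D90 it was -0.089 for Cyb5r3. None of the 5 members passed for age, against 0.101% of all genes tested (9 genes). Elovl2 alone had an unadjusted p below 0.05, as 12.2% of all genes did. Of the members 3 of 5 had a lower mean at D456, against 59.4% of all genes, with a median of -0.07 (-0.02 over all genes). The summed intensity of 11 Kupffer cell and macrophage markers was 18974 to 21046 at D456 and 9684 to 15760 at D90, and that of 9 blood cell markers 25559 to 29360 at D456 and 16563 to 22025 at D90. Of the first list 8 of 10 tested markers had a higher mean at D456 (median 0.46). Of the blood cell list 8 of 8 had (median 0.51). Lyz1 alone had 8023 to 9281 at D456 and 3677 to 6494 at D90. Adgre1 (398 to 597 and 398 to 570) and Clec4f (1234 to 1366 and 937 to 1338) overlapped between the ages. The hepatocyte marker sum was 109415 to 113582 at D456 and 114533 to 117645 at D90, and 9 of 10 tested hepatocyte markers had a lower mean at D456 (median -0.16). None of these 3 sums overlapped between the ages, and their part in the age differences was not tested. The 95% intervals of Fads1 (-0.19 to 0.22) and Elovl5 (-0.30 to 0.17) are for the mean age difference over these arrays in the additive fit. Single pairs lay outside them, for Fads1 F1 21% (0.28) and for Elovl5 F1 5% (-0.33) and F1 21% (0.25). The other pairs of these 2 genes lay within.

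Generation was compared as F3 against F1. Cyb5r3 was lower in F3 in 4 of 4 pairs, with a difference of -0.34 ± 0.11 (log2, 95% interval -0.58 to -0.09, -20.8% in intensity, unadjusted p = 0.0131, limma adjusted p = 0.988). It ranked 20 of 8945 genes by p in a comparison in which 0% of genes passed by limma and 2.14% (191 genes) had an unadjusted p below 0.05. Of all genes 5.52% were lower in 4 of 4 pairs. All 5 members had a lower mean in F3, against 56.4% of all genes, with a median of -0.04 (-0.0096 over all genes). The difference was -0.23 without the 3 arrays with pancreas transcripts and -0.22 with the pancreas covariate. The pairs were -0.57 in 5% D90, -0.32 in 5% D456, -0.14 in 21% D90 and -0.31 in 21% D456. The second probe of Cyb5r3 had a generation difference of -0.30 (limma adjusted p = 0.988), and the third probe had +0.48 (adjusted p = 0.988). Elovl2 had -0.30 ± 0.19, most of it from the D456 pair with 21% corn oil (-0.86). Fads1, Fads2 and Elovl5 had differences of -0.02 ± 0.09, -0.04 ± 0.11 and -0.03 ± 0.10, and the sign of each changed when single arrays were left out. The diet by generation and age by generation tests gave limma adjusted p-values between 0.996 and 0.999822 for the 5 members. Of all genes 0% passed either test, and 1.17% (diet by generation) and 2.91% (age by generation) had an unadjusted p below 0.05.

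Over the 8 arrays, Fads1 and Elovl5 had Pearson's r = 0.84 (exact permutation p = 0.0146) and Spearman's rho = 0.81 (exact permutation p = 0.0218). Elovl5 and Cyb5r3 had r = 0.81 (exact permutation p = 0.0235) and rho = 0.76 (exact permutation p = 0.0368). Elovl2 and Cyb5r3 had r = 0.80 (exact permutation p = 0.0157) and rho = 0.62 (exact permutation p = 0.115). After adjustment over the 10 pairs of members the 3 Pearson p-values became 0.0785 by the exact permutation test, and the smallest Spearman value became 0.0919. Without the 2 arrays farthest from the median of the first gene named, r was 0.40 for Fads1 with Elovl5. It was 0.68 for Elovl5 with Cyb5r3 and 0.31 for Elovl2 with Cyb5r3. Leaving out the farthest arrays narrows the range of values, so a lower r cannot show that a correlation rests on them. Without F1 5% D90 alone, r was 0.83 for Fads1 with Elovl5, 0.46 for Elovl5 with Cyb5r3 and 0.61 for Elovl2 with Cyb5r3. Fads2 and Elovl2 had the lowest r, 0.26 (exact permutation p = 0.536; rho = 0.24, exact permutation p = 0.582). With Cyb5r3, Fads2 had rho = 0.81 (exact permutation p = 0.0218) but r = 0.49 (exact permutation p = 0.217), and r was 0.83 without F1 5% D90. With Elovl5 it had rho = 0.76 (exact permutation p = 0.0368) and r = 0.48 (exact permutation p = 0.220), and r was 0.73 without F1 5% D90. Fads2 had r = 0.58 with Fads1 (exact permutation p = 0.133; rho = 0.57, exact permutation p = 0.151).

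The genes whose pattern over the 8 arrays was most like each member differed between the members. They were drawn from 1582 tested genes with an SD of at least 0.2, and the correlations below are descriptions over 8 arrays that share diets, ages and generations. Fads2 was most like Elovl6, the elongase of newly made saturated fatty acids (r = 0.90), followed by Gstt3 (0.89) and Acpp (0.89). Elovl6 had intensities of 1003 in F3 D456, 1332 in F1 D456, 1401 in F3 D90 and 863 in F1 D90 with 21% corn oil, against 1934 in F3 D456, 3110 in F1 D456, 3128 in F3 D90 and 2338 in F1 D90 with 5%. As for Fads2, its highest 21% array lay below its lowest 5% array, which held for 0.894% of all genes tested.

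Elovl2 was most like Serpinc1, which encodes antithrombin (r = 0.99), Afm, which encodes afamin (0.99), and Cfb, complement factor B (0.99), all secreted by hepatocytes. Serpinc1 had 438 in F3 D456, 703 in F1 D456, 627 in F3 D90 and 571 in F1 D90 with 21% corn oil, and 541 in F3 D456, 622 in F1 D456, 855 in F3 D90 and 1004 in F1 D90 with 5%. Of the 1582 genes, 60 had an r above 0.9 with Elovl2, where the median gene had 44 such partners. For the other members the count was 1 to 4. Serpinc1 was on the list of hepatocyte markers, and the median log2 intensity of the 11 markers was 11.19 in F3 D456, 11.38 in F1 D456, 11.54 in F3 D90 and 11.53 in F1 D90 with 21% corn oil. With 5% it was 11.69 in F3 D456, 11.33 in F1 D456, 12.05 in F3 D90 and 12.11 in F1 D90. On every array this median was the value of G6pc, so it describes that gene rather than the list. As with Elovl2, its young 5% arrays were both highest and F3 21% D456 was lowest. Alb and Pck1 were also highest in both young 5% arrays. Cps1 was lowest in F1 5% D90 (5127), and Ttr varied little (23694 to 24797). The part of hepatocyte content in the Elovl2 values was not tested.

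Fads1 was most like the lipoprotein receptor gene Vldlr (r = 0.92), the citrate synthase gene Cs (0.92) and Selenok (0.88). Elovl5 was most like the ceramidase gene Asah2 (0.92), the repressor gene Bcl6 (0.90) and Slc22a26 (0.90). Cyb5r3 was most like the splicing factor gene Srrm2 (0.94), the pyruvate dehydrogenase kinase gene Pdk2 (0.94) and the betaine transporter gene Slc6a12 (0.90). Without F1 5% D90 these values for Elovl5 were 0.81, 0.72 and 0.84, and for Pdk2 and Slc6a12 with Cyb5r3 they were 0.81 and 0.72.

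**Figure D4:**
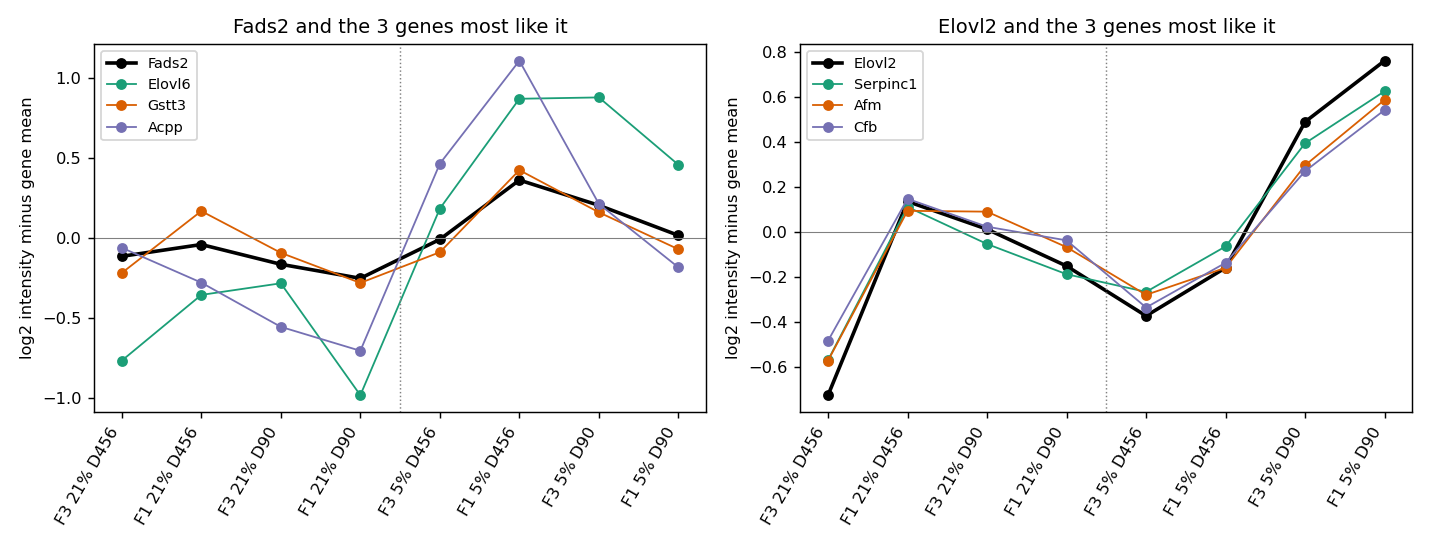
Log2 intensity minus each gene's own mean on the 8 arrays, 21% arrays left of the dotted line and 5% arrays right of it. Fads2 runs with Elovl6, Gstt3 and Acpp (r = 0.89 to 0.90), and Elovl2 runs with Serpinc1, Afm and Cfb (r = 0.99), high in both young 5% arrays.

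The sequences upstream of the starts of Fads2, Elovl5 and Elovl2 are shown because promoter windows were available for these 3 of the 5 members only. They are from RefSeq (GRCm38.p6), and no window was at hand for Fads1 and Cyb5r3. Each line is the 250 bases before the annotated start, read 5′ to 3′ on the gene's strand, with matches to the motifs searched in capitals. The windows are chr19:10101504-10101753 on the minus strand for Fads2, chr9:77917115-77917364 on the plus strand for Elovl5 and chr13:41220404-41220653 on the minus strand for Elovl2.
Fads2: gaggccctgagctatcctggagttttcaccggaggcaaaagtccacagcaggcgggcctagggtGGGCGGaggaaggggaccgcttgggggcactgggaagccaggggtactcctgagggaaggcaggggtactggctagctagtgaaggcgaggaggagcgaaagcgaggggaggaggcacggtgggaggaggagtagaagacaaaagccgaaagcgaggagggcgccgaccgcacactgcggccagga
Elovl5: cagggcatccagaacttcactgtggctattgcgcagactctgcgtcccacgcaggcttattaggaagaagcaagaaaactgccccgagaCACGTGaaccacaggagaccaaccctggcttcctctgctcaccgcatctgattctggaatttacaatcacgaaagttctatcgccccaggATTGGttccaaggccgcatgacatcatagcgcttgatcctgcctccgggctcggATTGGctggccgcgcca
Elovl2: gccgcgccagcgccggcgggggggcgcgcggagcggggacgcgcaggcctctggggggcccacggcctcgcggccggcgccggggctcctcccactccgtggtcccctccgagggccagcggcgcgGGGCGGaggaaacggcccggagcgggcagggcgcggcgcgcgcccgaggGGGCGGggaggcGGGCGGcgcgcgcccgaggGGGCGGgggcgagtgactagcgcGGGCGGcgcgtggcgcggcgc
Both strands were searched for CCAAT (bound by NF-Y), CACGTG (an E box, its own reverse complement and counted once per place), GGGCGG (a GC box, bound by Sp1), TCACNCCAC (a sterol regulatory element), and direct repeats of AGGTCA with 4 bases between them (an LXR element) or 1 (a PPAR element). No matches overlapped another motif. Elovl5 held 2 CCAAT matches, both on the opposite strand, 71 and 17 bases before the start counted to the first base of the match, and 1 E box at 161. Among 32851 windows of that length, 33.8% held CCAAT and 6.02% held CACGTG. Fads2 held 1 GC box at 186 bases, and Elovl2 held 5, while 32.7% of all windows held at least 1. The sterol regulatory element, found in 1.05% of all windows, and the LXR and PPAR elements, found in 0.0152% and 0.0335%, had no match in these 3 windows. The window of Elovl2 was also rich in CG pairs, with 49, against 14 in Fads2, 14 in Elovl5 and a median of 6 over all windows.

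Around the members, the other genes of the pathway were read from 7 lists (some genes stand in 2 of them). No gene of these lists passed by limma for diet, age or generation. Of 8 tested genes among 13 other desaturases and elongases, 5 had a lower value with 21% corn oil (median -0.04). Elovl6 (-1.19 ± 0.22, adjusted p = 0.389) and Scd1, the delta-9 desaturase (-0.74 ± 0.14, adjusted p = 0.483), had the largest limma differences. Neither acts on the linoleic acid series in the textbook pathway. Fads3, which lies in the Fads gene family, had -0.01 ± 0.02 and Fads6 -0.06 ± 0.04, both dim. Elovl1 had -0.09 ± 0.10.

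The steps that every elongase shares, and the other electron donors, did not lean one way. Of 10 tested genes of 13, 5 were lower and 5 higher with 21% corn oil (median 0.01). Tecr, the reductase that ends each elongation round, had -0.26 ± 0.16. Hsd17b12, the ketoacyl reductase, had -0.05 ± 0.09. Cyb5a, the cytochrome b5 that Cyb5r3 reduces, had 0.10 ± 0.09, and Cyb5b, its mitochondrial relative, 0.09 ± 0.08. The other reductases Cyb5r1 and Cyb5r4 had -0.05 ± 0.04 and 0.08 ± 0.17, and the gap between Cyb5r3 and these relatives was not tested.

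Peroxisomal enzymes shorten the long intermediate in the last step to docosahexaenoic acid. Of 12 tested genes of 14, 8 were higher with 21% corn oil (median 0.06). Hsd17b4, the bifunctional enzyme of that step, had 0.31 ± 0.12 (limma adjusted p = 0.999963), with 8801 in F3 D456, 8629 in F1 D456, 8253 in F3 D90 and 7558 in F1 D90 with 21%, against 6257 in F3 D456, 5648 in F1 D456, 7018 in F3 D90 and 8055 in F1 D90 with 5%. Scp2, a thiolase and lipid carrier, had 0.21 ± 0.19. Its intensity was 7700 in F1 5% D90 and 14211 to 18447 in all other arrays, so this difference rests on that array.

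Genes that activate polyunsaturated fatty acids and place them in phospholipids were lower in 10 of 15 tested of 22 listed (median -0.03). Lpcat3, which places arachidonic and linoleic acid in phospholipids, had -0.24 ± 0.10 (limma adjusted p = 0.999963). Its intensity was 2161 in F3 D456, 2009 in F1 D456, 2302 in F3 D90 and 2488 in F1 D90 with 21% corn oil. With 5% it was 2783 in F3 D456, 2725 in F1 D456, 2526 in F3 D90 and 2551 in F1 D90. Every 21% array of Lpcat3 lay below every 5% array, by a narrow margin (2488 against 2526), as for 0.894% of all genes tested. Mfsd2a, a transporter of lysophospholipids that carry docosahexaenoic acid, had -0.33 ± 0.15 and Acsl5, an acyl-CoA synthetase, -0.23 ± 0.10.

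Genes of the release and oxygenation of polyunsaturated fatty acids were split, with 13 of 24 tested (36 listed) higher with 21% corn oil (median 0.02). Cyp2c50 (0.34 ± 0.15), Cyp2c37 (0.33 ± 0.13) and Cyp4a14 (0.33 ± 0.19), cytochromes of families that oxidise fatty acids, led with Cyp4a12a (0.56 ± 0.39), which had 552 in F1 21% D90 and 117 to 121 in the other 7 arrays. The 11 lower genes included cytochromes of the same families. Cyp2c29 had 332 to 553 in the 21% arrays and 435 to 680 in the 5% arrays. Cyp2c55 had 151 to 224 with 21% and 166 to 297 with 5%. Regulators were lower in 11 of 18 tested of 23 (median -0.04). Scap, the escort protein of SREBP factors, had -0.30 ± 0.12, Ppargc1b, a coactivator of SREBP-1, -0.17 ± 0.11 and Hnf4a -0.12 ± 0.16. Hnf4a had 3084 in F1 5% D90 and 1651 to 2171 in all other arrays, and both D456 pairs were higher with 21%. Srebf1, which encodes SREBP-1, had -0.11 ± 0.11, with intensities of 309 to 436 in the 21% arrays and 389 to 435 in the 5% arrays. In the list of fatty acid and triglyceride synthesis, chosen with these data already seen, 17 of 17 tested of 20 were lower (median -0.23, against -0.29 for the 5 members). Acaca, which makes malonyl-CoA, the 2-carbon donor of elongation, had -0.84 ± 0.17 (limma adjusted p = 0.567), and Acss2, which activates acetate, had -0.63 ± 0.23.

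**Figure D5:**
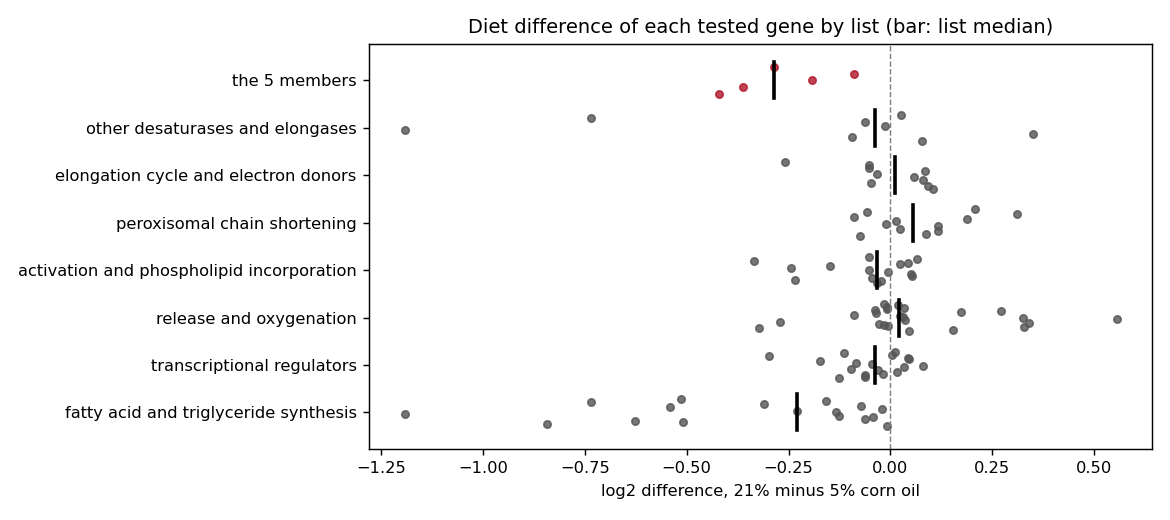
Log2 difference of 21% minus 5% corn oil for each tested gene of the members (red) and of 7 pathway lists (grey), with a bar at each list's median. The medians of the members (-0.29) and of fatty acid and triglyceride synthesis (-0.23) lie lowest, and the other medians lie between -0.04 and 0.06.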

How the data were processed

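Liver RNA was measured on 8 arrays. Trizol extraction, a Bioanalyser check and a biotin label are stated in the labels' protocols. The deposited values are linear intensity per probe, and the sources used here do not give how the authors normalized them. All arrays had a mean intensity of 457, and at equal ranks the arrays differed by 7.50% or less, so they had been scaled to each other. The lowest intensity of each array was 101 to 104, and whether a background had been subtracted is not known. Such a floor understates differences of dim genes.

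Values were taken to log2. Of 25697 probes, 23978 had 1 symbol, 0 several and 1719 none, and 0 symbols changed against RefSeq. The filter kept probes whose mean log2 exceeded 6.95 (the middle of all probe means), and the brightest kept probe stood for each gene (8945 genes). Limma 3.58.1 in R 4.3.3 fitted diet, age and generation additively (4 residual degrees of freedom, variances moderated along intensity, 4.36 prior degrees of freedom), two-sided, with Benjamini-Hochberg adjustment over all genes at 0.05. Each interaction was added on its own (3 residual degrees of freedom). Correlations of members used exact two-sided permutation tests. The fit was also run on simulated data, made of independent normal values with variances drawn from the fit itself. Those data held no arrays that stood apart, so they cannot show how the fit behaves with such arrays. The number of arrays limits the precision (median SE of a difference 0.08).

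Members and lists were chosen with earlier results of these data known. All members were named, each with its 3 most similar genes, and of each list the genes with the largest diet difference, besides relatives of the members chosen by role after their values were seen. Alternatives covered scaling, background (the 5th percentile subtracted, plus a pseudocount of 16), filter, probes, variance model, design, a pancreas covariate and leaving out each array. Leaving out the 3 arrays with pancreas transcripts was chosen after seeing the data.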

Additional observations from a re-analysis of the deposited data

Results flagged for a closer look

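Among the 4 arrays of F3, the Elovl5 value of F3 5% D90 stood far from the others. Its log2 intensity was 13.99, against 13.79 to 13.82 in the other 3, and the gap to the nearest was 0.845 of the whole range, above Dixon's 95% critical value for 4 samples. This was the only one of 30 groups of 4 arrays (5 members at 6 levels) to do so, and chance alone gives about 5% of groups.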

How the results depend on the processing

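No member passed for any factor under any alternative run, and 269 member values under them kept their sign while 22 did not. For diet, 5 of 5 members were lower under every setting except without F1 21% D90 (4 of 5). The pancreas marker level was also fitted as a covariate, with 3 residual degrees of freedom. The diet differences were then -0.30 for Fads1 and -0.28 for Fads2 (limma unadjusted p = 0.171). They were -0.55 for Elovl5 (limma adjusted p = 0.0920), -0.75 for Elovl2 and -0.76 for Cyb5r3 (adjusted p = 0.0711). Pancreas markers were raised in 5% arrays only, so this fit separates them poorly from diet. Among the 5% arrays only F1 5% D90, which stood apart otherwise, lacked raised markers. Leaving out 1 array moved Fads1 by diet between -0.15 and 0.0077, Fads1 by age between -0.078 and 0.079, and Elovl5 by age between -0.17 and 0.028. By generation it moved Fads1 between -0.12 and 0.040, Fads2 between -0.11 and 0.048, and Elovl5 between -0.14 and 0.061, with 2 to 5 members lower in F3. Other changes of sign came with the covariate (Elovl5 by age 0.13, Fads1 by generation 0.054, Elovl5 by generation 0.092, with 3 members lower in F3), with the mean of probes (Cyb5r3 by age 0.018) and with the third probe of Cyb5r3 (0.52 by age, 0.48 by generation). Without the 3 arrays with pancreas transcripts Elovl5 by age was 0.13, and by generation Fads1 was 0.11, Fads2 0.0071 and Elovl5 0.082, with 2 members lower in F3. Over all genes the number passing for diet (0) was 0 to 30 without 1 array (30 without F1 5% D90) and 29 without the 3 arrays. For age (9) it was 15 with background subtraction, 25 without a filter, 2 with the stricter filter, 0 without the trend, 24 with robust variances, 24 with 1 factor at a time, 29 with the covariate, 0 to 23 without 1 array and 0 without the 3 arrays. Apart from fewer samples or genes, the cause was not tested. No paired analysis was possible because each combination has 1 array and the labels give no replicate numbers. The pairs of arrays used above only match age and generation, diet and generation, or diet and age.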

Other observations

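Elovl3, an elongase of saturated and monounsaturated fatty acids that is expressed more in male than in female mouse liver, was near background except in one array. Its intensity was 281 in F1 21% D90, against 110 to 116 in the other 7 arrays. Cyp4a12a, a fatty acid hydroxylase with the same sex bias in mouse liver, had 552 in F1 21% D90, against 117 to 121 in the other 7. The Y chromosome gene Eif2s3y was also highest in that array (166, against 109 to 113). Fads1, Fads2 and Elovl5 each had the lowest of their 8 values there, while Elovl2 and Cyb5r3 did not. These values were picked after they had been seen, and no explanation was tested.

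Tecr, the enoyl reductase of the elongation cycle, was lowest in F1 5% D90 (2264), the array in which Fads1, Elovl5, Elovl2 and Cyb5r3 were highest, and was 2772 to 4458 elsewhere.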
